A study of Homo sapiens with 22 samples.

Results

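The genes described here are 34 genes of cholesterol synthesis, fatty acid synthesis and liver X receptor (LXR) signalling, followed in 2 neuroblastoma cell lines treated with the kinase inhibitor PP121 and the cardiac glycoside bufalin. They were taken by symbol from a table of 35237 genes and kept in 5 branches. The mevalonate branch has 7 genes (ACAT2, HMGCS1, MVK, PMVK, MVD, IDI1, FDPS). The branch from squalene to cholesterol has 11 (FDFT1, SQLE, LSS, CYP51A1, TM7SF2, MSMO1, NSDHL, HSD17B7, EBP, SC5D, DHCR7). A group of 3 genes serves sterol sensing and transport (SREBF2, INSIG1, STARD4). The fatty acid branch has 8 (SREBF1, ACLY, ACACA, FASN, ELOVL6, SCD, FADS1, FADS2), and the LXR branch has 5 (NR1H2, NR1H3, ABCA1, ABCG1, MYLIP). All 34 were found. The rule goes by symbol and uses no measured value, but earlier results of these data were known when the genes were chosen. All 34 passed the filter on low counts in SK-N-AS and 33 in GIMEN, where ABCG1 did not.

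Cells make cholesterol from acetyl-CoA by way of mevalonate and squalene. When sterol in the endoplasmic reticulum is scarce, the transcription factor encoded by SREBF2 is released to the nucleus and activates nearly every gene of that route. INSIG1, itself such a target, holds the factor back when sterol is plentiful. The factor encoded by SREBF1 acts mainly on fatty acid genes. The LXR proteins NR1H2 and NR1H3 sense oxidised sterols and activate the cholesterol exporters ABCA1 and ABCG1 and the ubiquitin ligase MYLIP, which marks lipoprotein receptors for degradation.

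SK-N-AS and GIMEN are established human neuroblastoma lines, and the labels call both mesenchymal. Untreated SK-N-AS grew in DMEM with 10% fetal bovine serum (FBS). The S1D4 cells had 4 days of 5 µM PP121 in 1% FBS. S2D4 and S2D30 cells went from that step into 5 µM PP121 with 100 nM bufalin, in Neurobasal medium with B27 supplement, for 4 or 30 days. Untreated GIMEN grew in RPMI with 10% FBS, and GIMEN D30 cells had 2.5 µM PP121 with 10 nM bufalin in RPMI with 1% FBS for 30 days. SK-N-AS had 4 libraries per group and GIMEN 3. Drug, serum and, in SK-N-AS, medium changed together, so their effects cannot be told apart. The doses, serum and medium also differ between the lines. Nothing in the labels says that replicates came from separate cultures, so p-values measure the spread between these libraries, which may be technical.

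The libraries held 16456484 to 37506800 counts. The adrenergic marker HAND2 was at 588 to 637 CPM (counts scaled to the size of the library) in untreated SK-N-AS and at 318 to 335 CPM in untreated GIMEN. DBH, the enzyme that makes noradrenaline and another adrenergic marker, was at 61.1 to 106 CPM in untreated SK-N-AS and at most 0.187 CPM in GIMEN. The mesenchymal marker FN1 was at 52.6 to 91 CPM in untreated SK-N-AS and at 27500 to 29300 CPM in untreated GIMEN, where NOTCH2 was at 0 to 0.0445 CPM. Of the 6 leukocyte markers PTPRC was at 169 to 214 CPM in untreated SK-N-AS and 0.544 to 1.4 CPM at S2D30, CD14 reached at most 4.62 CPM, and CD3E was at 0 in every SK-N-AS library. The highest of the 5 adipocyte markers, LIPE, reached 2.65 CPM. Of the 5 hepatocyte markers SERPINA1 was at 101 to 109 CPM in untreated GIMEN and at most 1.78 CPM in SK-N-AS, and ALB was at most 0.314 CPM in any library. The mesenchymal and adrenergic markers also moved with treatment. Of 7 mesenchymal markers, 2 were higher and 3 lower at S1D4, 6 higher and 1 lower at S2D4, and 6 higher and 1 lower at S2D30, where NOTCH2 was higher by 5.13 ± 0.49 and FN1, the 1 that fell, changed by −5.02 ± 0.47. Their summed level was 864 to 1430 CPM untreated, 1290 to 1530 CPM at S1D4, 2420 to 4760 CPM at S2D4 and 3220 to 3910 CPM at S2D30, with VIM the most abundant. Of 6 adrenergic markers (GATA3, PHOX2A, HAND2, ISL1, DBH, TH), 3 were lower and TH higher at S1D4, 5 lower and TH higher at S2D4, and 5 lower at S2D30, where TH, at most 0.607 CPM untreated, was not called. Their summed level was 989 to 1100 CPM untreated, 834 to 1010 CPM at S1D4, 487 to 727 CPM at S2D4 and 174 to 217 CPM at S2D30. In GIMEN the mesenchymal sum went from 34000 to 35600 CPM untreated to 18300 to 20800 CPM at D30. Of 6 mesenchymal markers tested there, 1 was higher and 4 lower. FN1 made most of that sum, at a mean of 28600 CPM untreated and 16000 CPM at D30, while CD44 went from 629 to 949 CPM. The adrenergic sum went from 371 to 393 CPM to 208 to 245 CPM, with 1 of 3 tested markers lower. HAND2 made most of it, at a mean of 329 and 159 CPM, while GATA3 was at 54.6 and 61.1 CPM. The part of any of these markers in the results was not tested. In bulk RNA, fewer cells of a type and less RNA per cell cannot be told apart. The S2D4 library of replicate 4 stood apart, with correlations of 0.9631 to 0.9651 to the other S2D4 libraries, which correlated at 0.9898 to 0.9903 with each other. In TM7SF2, LSS, ELOVL6, SCD, NR1H3, ABCG1 and MYLIP, among other members, its value lay above the highest S1D4 value. It also stood apart in markers called at S2D4. TH was at 25.8 CPM in it and at 0.729 to 1.25 CPM in S2D4 replicates 1 to 3, so that call leans on 1 library. NOTCH2 was at 3.9 CPM in it against 30.8 to 36.3 CPM, and SNAI2 at 3.37 CPM against 17.2 to 20.1 CPM, while YAP1 was at 88.8 CPM against 73.6 to 82.2 CPM. The S1D4 libraries fell into 2 pairs, replicates 1 and 2 and replicates 3 and 4, which correlated at 0.9895 and 0.9896 within and 0.9796 to 0.9814 across the pairs. Untreated replicate 4 correlated at 0.9744 to 0.9805 with the other untreated libraries, which correlated at 0.9843 to 0.99 with each other.

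Changes are log2 fold changes from edgeR's quasi-likelihood test ± their standard error (SE), and a gene is called higher or lower at a Benjamini-Hochberg adjusted p under 0.05 over all genes tested. CPM values are scaled within each line. At S1D4, 22 of the 34 genes were lower and 4 higher than in untreated cells, while 22.4% of all 15810 genes were lower, 17.6% higher and 40.1% called in either direction. The libraries of the 2 groups did not overlap for 26 of the 34, against 37.9% of all genes. At S2D4, 27 were lower and 5 higher, against 32.2% and 30.9% of all genes, and without the S2D4 library of replicate 4 the counts were 25 and 3. In either direction 63.1% of all genes were called at S2D4, and 51.1% did not overlap, against 27 of the 34. From S1D4 to S2D4, 3 members rose and 11 fell, against 28.3% and 26.8% of all genes (55.1% in either direction), and 8 did not overlap, against 49.4%. Without the S2D4 library of replicate 4 that step had 4 rises and 13 falls. At S2D30, 15 were higher and 9 lower, against 33.8% and 36.5% of all genes. A similar share of all genes, 70.3%, was called at S2D30 in either direction, so that count says little of these genes, and the branches went different ways. At S2D30, 22 members did not overlap with untreated, against 66.5% of all genes. Between S2D4 and S2D30, 25 rose and 6 fell, against 24.4% and 26.9% (51.3% in either direction), and without that library 25 and 4. In GIMEN D30, 20 of 33 were lower and 9 higher, against 36% and 35.5%, and 71.4% of all genes were called in either direction.

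**Figure D1:**
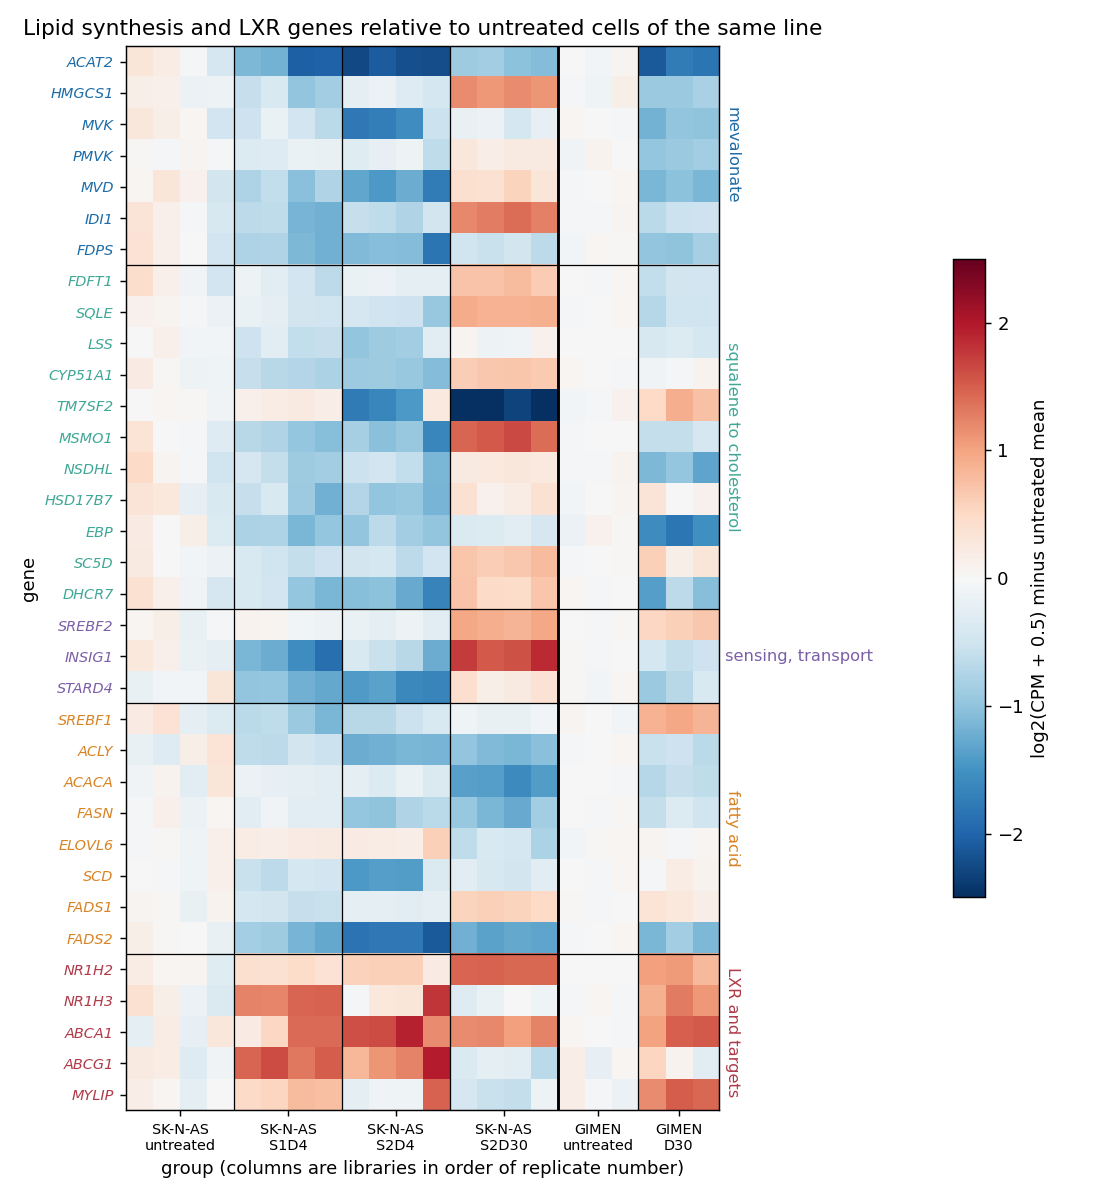
Each row is 1 of the 34 genes and each column 1 library; the colour gives log2(CPM + 0.5) minus the mean of the untreated libraries of the same line, and gene names are coloured by branch. Most cholesterol genes are lower at S1D4 and S2D4 and many are higher at S2D30, where ACACA, ACLY, FASN and FADS2 are low; the 4th S2D4 column differs from the other S2D4 columns in TM7SF2, SCD, NR1H3 and MYLIP.

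Promoter sequences are shown for the genes on which the results turn: INSIG1 and MSMO1, the largest rises from S2D4 to S2D30, SREBF2, whose product acts on this route, and ABCA1, the largest rise of the LXR branch in SK-N-AS. Each is the 250 bases before the annotated start, 5′ to 3′ on the gene's strand, from RefSeq (GRCh38.p14). The positions are chr7:155297628-155297877 for INSIG1, chr4:165327419-165327668 for MSMO1 and chr22:41832855-41833104 for SREBF2, all on the plus strand, and chr9:104928156-104928405 for ABCA1 on the minus strand. Capitals mark matches on either strand to CCAAT, the core of the binding site of NF-Y, and to CACNCCAC, the core of the sterol response element. In SREBF2 the capitals extend by 1 base to TCACNCCAC, a longer form that contains CACNCCAC.
INSIG1: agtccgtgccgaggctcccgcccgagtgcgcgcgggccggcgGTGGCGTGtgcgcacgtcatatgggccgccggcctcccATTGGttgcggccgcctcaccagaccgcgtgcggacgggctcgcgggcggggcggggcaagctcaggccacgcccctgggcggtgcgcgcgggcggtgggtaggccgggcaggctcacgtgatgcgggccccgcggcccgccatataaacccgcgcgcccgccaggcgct
MSMO1: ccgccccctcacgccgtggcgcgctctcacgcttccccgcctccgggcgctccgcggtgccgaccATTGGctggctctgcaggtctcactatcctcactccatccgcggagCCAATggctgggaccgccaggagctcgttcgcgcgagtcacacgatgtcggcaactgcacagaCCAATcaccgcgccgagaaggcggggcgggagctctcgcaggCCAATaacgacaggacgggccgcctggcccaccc
SREBF2: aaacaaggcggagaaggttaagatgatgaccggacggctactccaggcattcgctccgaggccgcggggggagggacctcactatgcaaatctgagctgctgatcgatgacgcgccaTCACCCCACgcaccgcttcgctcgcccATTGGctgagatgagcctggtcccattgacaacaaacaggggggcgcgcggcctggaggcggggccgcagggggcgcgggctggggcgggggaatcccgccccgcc
ABCA1: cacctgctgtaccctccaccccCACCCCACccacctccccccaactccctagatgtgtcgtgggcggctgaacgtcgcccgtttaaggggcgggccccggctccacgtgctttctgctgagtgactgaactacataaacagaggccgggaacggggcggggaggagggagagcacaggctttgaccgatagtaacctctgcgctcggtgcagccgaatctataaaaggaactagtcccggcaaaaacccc

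The RefSeq table listed 29 of the 34 genes with 41 starts, and ACAT2, FDFT1, SQLE, FASN and ABCG1 had no entry. CCAAT occurred before 15 of the 20 starts of the mevalonate and squalene-to-cholesterol genes, before 5 of the 11 starts of fatty acid genes and before 2 of the 7 starts of LXR genes. Over all 35116 starts in the table, 32% had CCAAT in a window of this length. MSMO1 had 4 copies, and MVK and NSDHL had 5 each. CACNCCAC stood before 7 of the 41 starts, those of SREBF2, INSIG1, SCD and ABCA1 and 1 start each of IDI1, SC5D and ACACA, against 4.87% of all starts. TCACNCCAC stood before SREBF2 only, against 0.883% of all starts. For the repeat read by LXR, only the exact form was searched, AGGTCA followed after 4 bases by AGGTCA. It stood before none of the 41 starts and before 0.0142% of all starts. Repeats that differ from it in any letter were neither counted nor marked. The lack of an exact match therefore does not show that a promoter, that of ABCA1 included, has no LXR site. A match to such letters is a description of the sequence and not evidence of binding.

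The mevalonate genes fell at S1D4 and S2D4 and parted at S2D30. At S1D4, 5 of 7 were lower (median −0.83 on the log2 scale, all genes −0.01), at S2D4 all 7 were lower (median −1.28, all genes −0.02), and at S2D30 IDI1, HMGCS1 and MVD were higher while ACAT2 and FDPS stayed lower (median 0.22, all genes −0.03). Without the S2D4 library of replicate 4, 6 of 7 were lower at S2D4. From S2D4 to S2D30 all 7 rose, by 0.54 to 1.9, and the 4 libraries of each group did not overlap for any of them, as for 50.3% of all genes.

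HMGCS1 makes HMG-CoA, the substrate of the rate-limiting step. Its level in SK-N-AS replicates 1 to 4 was 73, 72, 59.8 and 60 CPM untreated, 44, 50.5, 33 and 36 CPM at S1D4, 56, 59.3, 52.3 and 48.6 CPM at S2D4, and 150, 141, 151 and 142 CPM at S2D30. All S1D4 and S2D4 libraries lay below all untreated ones and all S2D30 libraries above. The changes from untreated were −0.70 ± 0.12 at S1D4 (adjusted p = 0.000215), −0.29 ± 0.12 at S2D4 (adjusted p = 0.0386) and 1.14 ± 0.12 at S2D30 (adjusted p = 2.18e-07), and the rise between the last 2 groups was 1.44 ± 0.12 (adjusted p = 6.19e-08). From S1D4 to S2D4 it rose by 0.40 ± 0.12 (adjusted p = 0.0089), one of 3 members that did. The S2D4 call was lost in each of 5 fits that left out 1 library (the lowest change −0.21 without untreated replicate 1, adjusted p = 0.152).

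IDI1, which isomerises isopentenyl diphosphate, had the largest day-30 rise of the branch. It was at 103, 90.2, 78.9 and 61.7 CPM untreated, 51.7, 52.3, 36.6 and 35.4 CPM at S1D4, 54.5, 52.5, 48.2 and 59.8 CPM at S2D4, and 189, 200, 216 and 197 CPM at S2D30, where it was higher by 1.26 ± 0.15 (adjusted p = 1.19e-06). MVD, which decarboxylates mevalonate diphosphate, ran from 28.5, 34.1, 29.5 and 19.7 CPM untreated through 15.9, 17.8, 13.1 and 16.1 CPM at S1D4 and 10.8, 9.81, 11.3 and 7.8 CPM at S2D4 (−1.5 ± 0.16, adjusted p = 4.15e-07) to 36.6, 35.9, 40.4 and 33.8 CPM at S2D30. Its S2D30 change, 0.39 ± 0.15 (adjusted p = 0.0279), rests on a group overlap, since 33.8 CPM lies under the highest untreated value. That call was lost without untreated replicate 4 (0.27, adjusted p = 0.0646) or S2D30 replicate 3 (0.34, adjusted p = 0.0772).

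ACAT2, which condenses acetyl-CoA in the cytosol, and FDPS, which makes farnesyl diphosphate, had the largest falls at S1D4. ACAT2 was at 43.1, 39.5, 33.6 and 25.9 CPM untreated, 15.7, 15.1, 8.12 and 8.26 CPM at S1D4, 6.89, 7.91, 7.27 and 7.1 CPM at S2D4, and 18.6, 18.8, 17 and 16.2 CPM at S2D30. No treated library reached the lowest untreated one, and the changes were −1.59 ± 0.20 (adjusted p = 1.59e-05), −2.28 ± 0.21 (adjusted p = 9.46e-08) and −1.01 ± 0.20 (adjusted p = 0.000276). In GENCODE v29, 52.3% of ACAT2 exon bases lie opposite exons of SOD2, TCP1 or SOD2-OT1, and the strand setting of the counting is not given in the sources used here. At S2D30 TCP1 changed by −0.51 ± 0.10 (adjusted p = 0.000257) and SOD2 by 2.22 ± 0.12 (adjusted p = 7.4e-11), so the ACAT2 value is uncertain. FDPS was at 294, 252, 228 and 165 CPM untreated and 135, 137, 105 and 99.5 CPM at S1D4 (−0.98 ± 0.18, adjusted p = 0.000371). At S2D30 it was still lower, at a change of −0.57 ± 0.18 (adjusted p = 0.00817), at 162, 156, 168 and 146 CPM, with 168 CPM just above the lowest untreated library. MVK and PMVK, the kinases of the branch, were at 40.4 ± 8.68 and 28.1 ± 1.04 CPM untreated (SD, n = 4) and at 33.4 ± 3.08 and 32.8 ± 1.10 CPM at S2D30, changes of −0.27 and 0.22 that did not pass the test. Smaller parts of FDPS (18.6%), HMGCS1 (15%) and IDI1 (14.8%) exons also lie opposite other genes.

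The genes from squalene to cholesterol moved in the same order of groups. At S1D4, 10 of 11 were lower (median −0.71), at S2D4 10 of 11 were lower (median −0.88, and the same count without the S2D4 library of replicate 4), and at S2D30, 6 were higher and 2 lower (median 0.56). From S2D4 to S2D30, 10 rose, by 0.53 to 2.62, and TM7SF2 fell. For all 11 the libraries of those 2 groups did not overlap.

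MSMO1, the sterol C4-methyl oxidase, rose most. It was at 97.9, 77.5, 74.6 and 61.8 CPM untreated, 47.2, 45.7, 39.1 and 36.5 CPM at S1D4, 42.8, 37.2, 39.6 and 24.6 CPM at S2D4, and 212, 223, 243 and 204 CPM at S2D30. Every S1D4 and S2D4 library lay below every untreated one, and every S2D30 library lay above. It changed by −0.89 ± 0.16 at S1D4 (adjusted p = 0.000304), −1.12 ± 0.16 at S2D4 (adjusted p = 1.22e-05) and 1.5 ± 0.16 at S2D30 (adjusted p = 2.6e-07), and by 2.62 ± 0.17 from S2D4 to S2D30 (adjusted p = 2.68e-09). DHCR7, which reduces 7-dehydrocholesterol, was at 137, 115, 97.9 and 78 CPM untreated, 49.6, 51.1, 43.6 and 32.7 CPM at S2D4 (−1.28 ± 0.19, adjusted p = 2.25e-05) and 173, 146, 144 and 169 CPM at S2D30 (0.56 ± 0.19, adjusted p = 0.0137). The S2D4 values were apart from both other groups.

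SQLE, the oxidase of squalene, FDFT1, which makes squalene, SC5D, a late desaturase, and CYP51A1, the lanosterol demethylase, were also higher at S2D30, by 0.89, 0.68, 0.70 and 0.66. CYP51A1 shares 77.5% of its 75-base words with a read-through transcript and pseudogenes in GENCODE v29, so its counts are uncertain. The S1D4 falls of FDFT1 (−0.41, adjusted p = 0.036) and SQLE (−0.34, adjusted p = 0.0201) were lost in 4 and 3 fits that left out 1 library, with adjusted p up to 0.205 for FDFT1 and 0.0807 for SQLE. LSS (lanosterol synthase), NSDHL (C4 decarboxylation) and HSD17B7 (a sterol ketone reductase) differed from untreated at S2D30 by −0.01, 0.21 and 0.25, which did not pass the test. HSD17B7 shares 7.77% of its 75-base words with the pseudogene HSD17B7P2.

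TM7SF2 and EBP ended below untreated. EBP, a sterol isomerase, was at 78, 66.9, 74.4 and 52.9 CPM untreated, 38.6, 39.5, 30.1 and 34.1 CPM at S1D4 (−0.94 ± 0.12, adjusted p = 1.69e-05) and 52.5, 53, 55.8 and 50.2 CPM at S2D30 (−0.36 ± 0.12, adjusted p = 0.0125). The S2D30 call on EBP was lost without untreated replicate 1 (−0.26, adjusted p = 0.0726). TM7SF2, a sterol C14 reductase whose reaction LBR also catalyses, was at 54.6, 57.1, 56.5 and 52.1 CPM untreated, 60.3, 62.9, 64.4 and 61.7 CPM at S1D4, 15.8, 17.4, 19.9 and 65.6 CPM at S2D4, and 8.02, 9.37, 10.6 and 8.93 CPM at S2D30. It did not fall at S1D4, and 3 of the 4 S2D4 libraries were far below it. Its change was −0.88 ± 0.32 at S2D4 (adjusted p = 0.0247), −1.64 without the library of replicate 4 (adjusted p = 2.53e-10), and −2.58 ± 0.35 at S2D30 (adjusted p = 4.45e-06). Leaving out S2D4 replicate 1, 2 or 3 ended the S2D4 call instead (adjusted p 0.0778 to 0.0789).

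**Figure D2:**
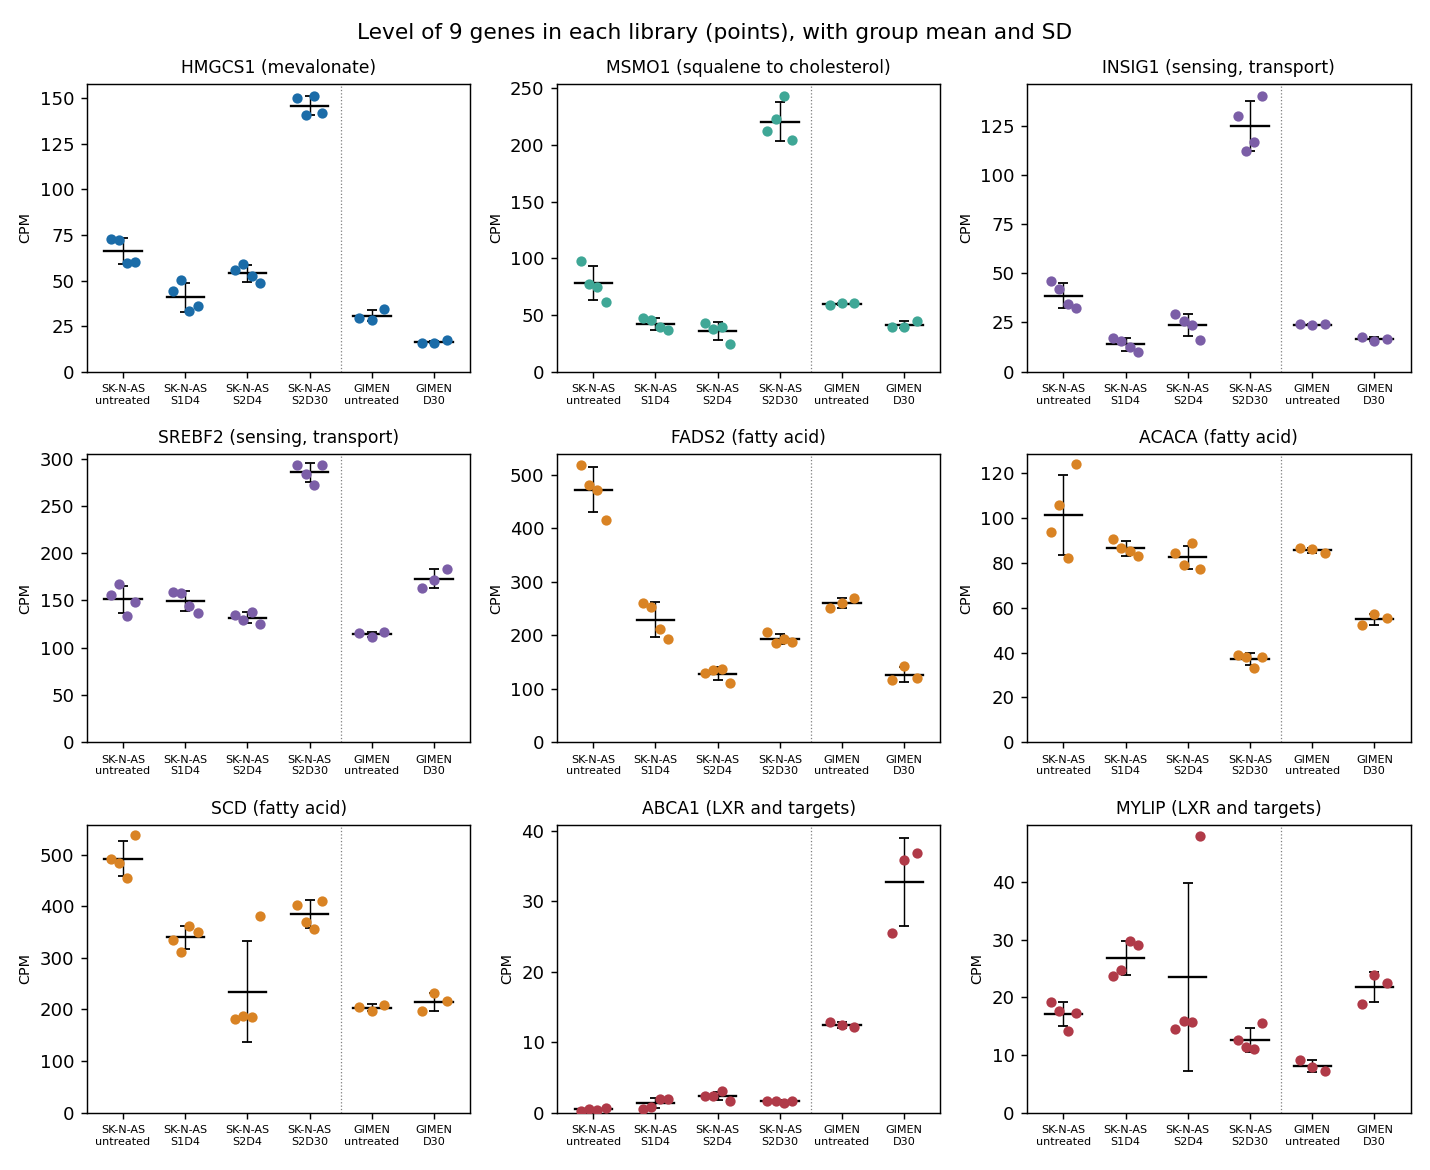
The level of 9 genes in CPM (linear axis from 0, scaled within each line) in each library, with the group mean as a line and its SD as a bar; the dotted line divides SK-N-AS from GIMEN. HMGCS1, MSMO1, INSIG1 and SREBF2 are highest at S2D30, FADS2 and ACACA are below untreated there, and 1 S2D4 library of SCD (381 CPM) and of MYLIP (47.9 CPM) lies far above the other 3.

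SREBF2, INSIG1 and STARD4 were all higher at S2D30. SREBF2 was at 156, 167, 133 and 148 CPM untreated, 159, 158, 144 and 137 CPM at S1D4, 134, 129, 138 and 125 CPM at S2D4, and 293, 284, 272 and 293 CPM at S2D30. The S1D4 libraries overlapped the untreated ones, while the lowest S2D30 library was far above both. Its change was −0.01 ± 0.08 at S1D4 (adjusted p = 0.917), −0.20 ± 0.08 at S2D4 (adjusted p = 0.0363) and 0.92 ± 0.08 at S2D30 (adjusted p = 2.08e-08), with −0.19 ± 0.08 from S1D4 to S2D4 (adjusted p = 0.055) and 1.12 ± 0.08 from S2D4 to S2D30 (adjusted p = 1.03e-08). The S2D4 call was lost in 5 fits that left out 1 library, with adjusted p up to 0.127. At S1D4, 15 of the 18 mevalonate and squalene-to-cholesterol genes were lower, while SREBF2 RNA was not called. RNA does not show how much of the factor is released to the nucleus, and its part in these changes was not tested.

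INSIG1 was at 46, 41.9, 34.2 and 32.4 CPM untreated, 17, 15.8, 12.7 and 10 CPM at S1D4, 29.1, 25.9, 23.6 and 16 CPM at S2D4, and 130, 112, 117 and 140 CPM at S2D30. The 4 groups did not overlap except for 1 S2D4 library, replicate 4, inside the S1D4 range. The changes from untreated were −1.48 ± 0.18 at S1D4 (adjusted p = 1.21e-05), −0.71 ± 0.18 at S2D4 (adjusted p = 0.00251) and 1.69 ± 0.18 at S2D30 (adjusted p = 3.09e-07). It rose at each later step, by 0.77 ± 0.18 from S1D4 to S2D4 (adjusted p = 0.00221) and by 2.40 ± 0.19 from S2D4 to S2D30 (adjusted p = 2.74e-08).

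STARD4, a soluble carrier that moves sterol between membranes, was at 81.2, 88, 88 and 114 CPM untreated, 45.9, 46.8, 39.8 and 37.7 CPM at S1D4, 34, 36.2, 29.9 and 28.8 CPM at S2D4, and 123, 102, 108 and 119 CPM at S2D30. It fell by 1.13 ± 0.12 at S1D4 (adjusted p = 2e-06) and by 1.53 ± 0.12 at S2D4 (adjusted p = 1.09e-08). Its S2D30 libraries overlapped the untreated ones, and the change of 0.28 ± 0.11 (adjusted p = 0.0351) was lost in 5 fits that left out 1 library, with adjusted p up to 0.1.

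The fatty acid genes called lower differed between the groups. At S1D4, SREBF1, ACLY, SCD, FADS1 and FADS2 were lower (5 of 8, median −0.52), and at S2D4, 7 were lower and ELOVL6 higher (median −0.72). At S2D30, ACLY, ACACA, FASN, ELOVL6 and FADS2 were lower, FADS1 was higher, and SREBF1 and SCD were not called (median −0.81). The S2D30 libraries of SCD still all lay below the untreated ones, unlike those of SREBF1. ACLY and FADS2 were thus called lower in all 3 treated groups. The call on ELOVL6 at S2D4 was lost without the library of replicate 4 (0.18, adjusted p = 0.0845) or without untreated replicate 3 (adjusted p = 0.0691). Between S2D4 and S2D30, SREBF1, SCD, FADS1 and FADS2 rose and ACACA and ELOVL6 fell.

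SREBF1 was at 104, 117, 77.3 and 71.8 CPM untreated, 56.5, 58.2, 47.6 and 40.7 CPM at S1D4, 56.2, 56.1, 62.6 and 69.1 CPM at S2D4, and 84.1, 79.3, 79.7 and 85.9 CPM at S2D30. The S1D4 and S2D4 libraries were all below the untreated ones, and the S2D30 libraries lay inside the untreated range. The changes from untreated were −0.87 ± 0.15 at S1D4 (adjusted p = 0.000184), −0.60 ± 0.14 at S2D4 (adjusted p = 0.00169) and −0.17 ± 0.14 at S2D30 (adjusted p = 0.298). The step from S1D4 to S2D4 was 0.27 ± 0.15 (adjusted p = 0.132), and the rise from S2D4 to S2D30 was 0.43 ± 0.14 (adjusted p = 0.0198). That rise was lost without S2D4 replicate 1 or 2 (adjusted p 0.0562 and 0.0566).

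FADS2, the delta-6 desaturase of polyunsaturated fatty acids, had the largest fall of the branch at S1D4 and S2D4, and ACACA had it at S2D30. It was at 518, 480, 472 and 416 CPM untreated, 260, 253, 211 and 193 CPM at S1D4, 130, 135, 136 and 110 CPM at S2D4, and 205, 186, 193 and 187 CPM at S2D30. All 12 treated libraries lay below all untreated ones, with changes of −1.04 ± 0.10 (adjusted p = 1.44e-06), −1.88 ± 0.11 (adjusted p = 2.88e-10) and −1.29 ± 0.10 (adjusted p = 9.8e-09). FADS1, the neighbouring delta-5 desaturase, went the other way at day 30, from 183 ± 15.7 CPM untreated (SD, n = 4) to 268 ± 7.06 CPM (0.55 ± 0.07, adjusted p = 2.4e-06). In GENCODE v29, 4.44% of FADS2 exon bases lie opposite FADS1.

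ACACA, the acetyl-CoA carboxylase that commits carbon to fatty acids, was at 93.8, 106, 82 and 124 CPM untreated, 90.8, 86.7, 85.4 and 83.1 CPM at S1D4, 84.5, 79.2, 88.9 and 77.5 CPM at S2D4, and 39, 38.1, 33.1 and 37.8 CPM at S2D30. All S2D30 libraries, and 2 of the S2D4 libraries, lay below every untreated one, and the S2D30 change was −1.45 ± 0.11 (adjusted p = 3.06e-09). The S2D4 call on ACACA (−0.30, adjusted p = 0.0199) was lost without untreated replicate 4 (−0.17, adjusted p = 0.102) or S2D4 replicate 2 (−0.28, adjusted p = 0.0509). ACLY, which makes cytosolic acetyl-CoA from citrate, was at 528, 478, 663 and 761 CPM untreated and 252, 258, 271 and 267 CPM at S2D4 (−1.21 ± 0.12, adjusted p = 1.37e-07), and it stayed at 301, 278, 272 and 291 CPM at S2D30. FASN, the fatty acid synthase, went from 1110 ± 84.2 CPM untreated (SD, n = 4) to 944 ± 62.7 CPM at S1D4, 614 ± 70.6 CPM at S2D4 and 533 ± 66.3 CPM at S2D30, where it changed by −1.05 ± 0.11 (adjusted p = 1.44e-07).

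SCD, which makes oleate from stearate, was at 492, 484, 455 and 538 CPM untreated, 334, 312, 362 and 351 CPM at S1D4, 182, 188, 186 and 381 CPM at S2D4, and 403, 370, 355 and 411 CPM at S2D30. The treated libraries were all below the untreated ones, and the S2D4 library of replicate 4 was above every S1D4 library. Its changes were −0.53 ± 0.18 at S1D4 (adjusted p = 0.0275), −1.07 ± 0.18 at S2D4 (adjusted p = 8.55e-05) and −0.36 ± 0.18 at S2D30 (adjusted p = 0.0913), with −0.54 ± 0.18 from S1D4 to S2D4 (adjusted p = 0.02) and 0.72 ± 0.18 from S2D4 to S2D30 (adjusted p = 0.00363). Without the S2D4 library of replicate 4 those last 2 changes were −0.88 and 1.05. The S1D4 call was lost in 5 fits that left out 1 library, with adjusted p up to 0.071, and the step from S1D4 to S2D4 without S2D4 replicate 1, 2 or 3 (adjusted p 0.0689 to 0.0703).

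**Figure D3:**
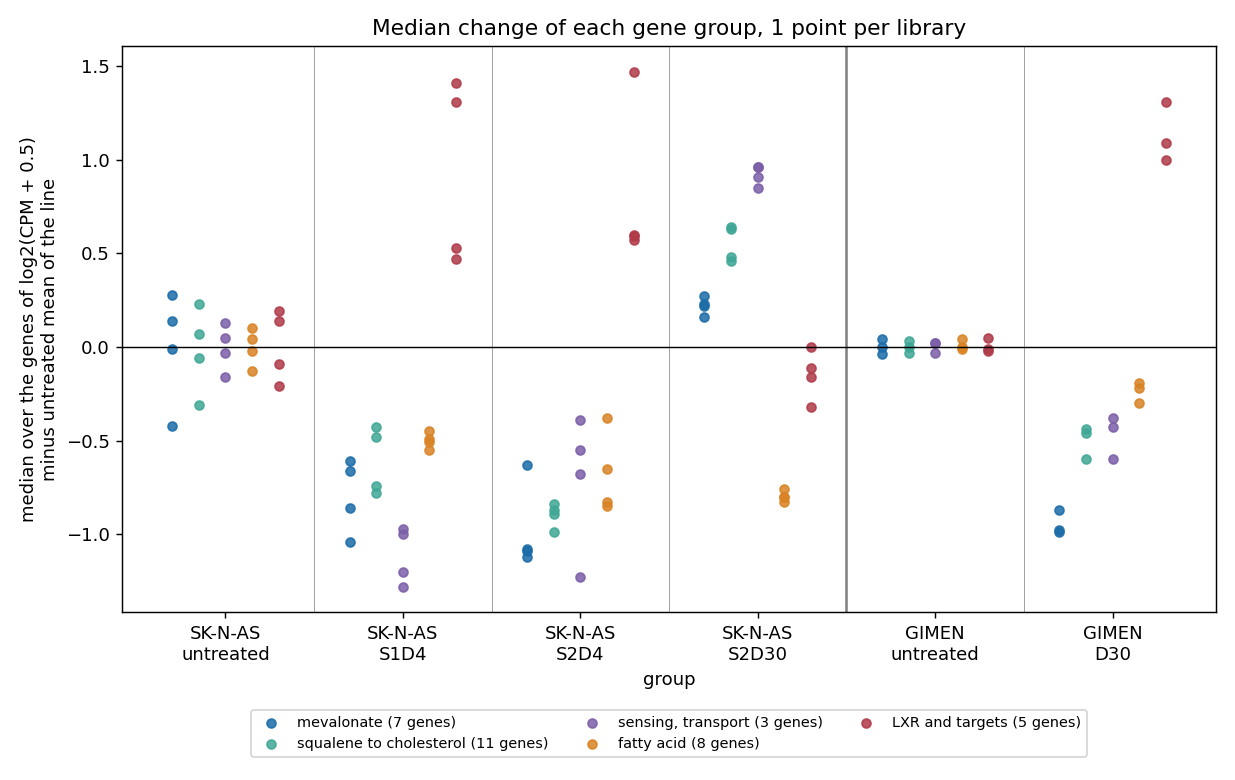
For each library, the median over the genes of a branch of log2(CPM + 0.5) minus the untreated mean of the line, 1 point per library, coloured by branch. At S2D30 the 3 cholesterol groups lie at 0.16 to 0.96 and the fatty acid branch at −0.83 to −0.76; in GIMEN D30 every branch but LXR lies below 0.

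The LXR branch moved opposite to the synthesis branches in the early groups. At S1D4, 4 of 5 were higher (median 1.37), at S2D4, 4 were higher (median 0.79) and 3 without the library of replicate 4 (median 0.58), and at S2D30, only NR1H2 and ABCA1 were called higher (median −0.19). From S2D4 to S2D30 NR1H2 rose while NR1H3, ABCG1 and MYLIP fell, but without that library only ABCG1 fell. From S1D4 to S2D4 none of the 5 was called (median −0.14), but without that library ABCA1 rose (0.96, adjusted p = 0.0346) and NR1H3 (−1.21, adjusted p = 1.19e-05) and MYLIP (−0.80, adjusted p = 6.78e-05) fell (median −0.48). The S1D4 medians of the branch followed the 2 pairs of libraries, at 0.47 and 0.53 in replicates 1 and 2 and 1.31 and 1.41 in replicates 3 and 4. With a model term that set replicates 3 and 4 of untreated and S1D4 apart, 4 of the 34 members were higher and 23 lower at S1D4.

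ABCA1, which loads cholesterol onto lipid-poor apolipoprotein, was scarce in SK-N-AS, with 6 to 20 counts per untreated library. It was at 0.29, 0.56, 0.306 and 0.633 CPM untreated, 0.584, 0.833, 1.98 and 1.98 CPM at S1D4, 2.36, 2.41, 3.07 and 1.63 CPM at S2D4, and 1.63, 1.64, 1.4 and 1.71 CPM at S2D30. S2D4 and S2D30 libraries were all above untreated ones, and 1 S1D4 library lay inside the untreated range. The changes were 1.58 ± 0.40 at S1D4 (adjusted p = 0.00454), 2.39 ± 0.39 at S2D4 (adjusted p = 5.41e-05) and 1.82 ± 0.39 at S2D30 (adjusted p = 0.000578). The steps from S1D4 to S2D4 (0.81 ± 0.36, adjusted p = 0.0658) and from S2D4 to S2D30 (−0.56 ± 0.36, adjusted p = 0.2) did not pass the test, the first passing without S1D4 replicate 3 or 4 or S2D4 replicate 4 (adjusted p 0.0323 to 0.0346).

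ABCG1, which exports cholesterol to high-density lipoprotein, was at 1.26, 1.21, 0.713 and 0.917 CPM untreated, 3.63, 4.17, 3.25 and 3.78 CPM at S1D4, 2.17, 2.75, 3.07 and 5.4 CPM at S2D4, and 0.679, 0.794, 0.747 and 0.449 CPM at S2D30. The value of 5.4 CPM came from the S2D4 library of replicate 4. The rise was thus in the early groups, by 1.83 ± 0.29 at S1D4 (adjusted p = 9.46e-05) and 1.70 ± 0.28 at S2D4 (adjusted p = 6.76e-05), while the S2D30 libraries overlapped the untreated ones (−0.63 ± 0.31, adjusted p = 0.0791, and −0.77 with adjusted p = 0.0458 without untreated replicate 3). NR1H2, the LXR found in most tissues, was at 88.2, 79.6, 81.2 and 63 CPM untreated, 102, 101, 106 and 100 CPM at S1D4, 115, 117, 118 and 89.4 CPM at S2D4, and 214, 217, 211 and 209 CPM at S2D30 (1.45 ± 0.10, adjusted p = 1.81e-09). NR1H2 thus rose in all 3 treated groups.

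NR1H3, the LXR of macrophages and liver, was at 10.6, 8.91, 7.18 and 6.14 CPM untreated, 19.7, 19.3, 22.9 and 23.4 CPM at S1D4 (1.37 ± 0.32, adjusted p = 0.00243), 7.76, 9.81, 10.1 and 28.9 CPM at S2D4, and 6.34, 7.14, 8.08 and 7.41 CPM at S2D30. Its S2D4 call (0.79 ± 0.31, adjusted p = 0.0368) came from the library of replicate 4, without which the change was 0.16 (adjusted p = 0.417). It was also lost without untreated replicate 2, 3 or 4 (adjusted p up to 0.0909). The fall of NR1H3 from S2D4 to S2D30 (−0.98, adjusted p = 0.0168) was −0.35 without that library (adjusted p = 0.0947). MYLIP was at 19.2, 17.7, 14.2 and 17.2 CPM untreated, 23.7, 24.8, 29.7 and 29.1 CPM at S1D4, 14.5, 15.9, 15.8 and 47.9 CPM at S2D4, and 12.6, 11.4, 11 and 15.5 CPM at S2D30. All 4 S1D4 libraries lay above all untreated ones. The S1D4 change of 0.65 ± 0.30 (adjusted p = 0.0936) did not pass the test, whose model also held the S2D4 libraries, and it was 0.68 ± 0.12 (adjusted p = 0.00151) in a model of untreated and S1D4 alone. At S2D4 MYLIP was not called, and without the library of replicate 4 the change was −0.16 (adjusted p = 0.304). At S2D30 it was not called either (−0.44, adjusted p = 0.204), but was called lower in a model of those 2 groups alone (−0.41, adjusted p = 0.0204). Its fall from S2D4 to S2D30 (−0.90, adjusted p = 0.019) was −0.28 without the library of replicate 4 (adjusted p = 0.0865) and was also lost without S2D30 replicate 3 (adjusted p = 0.052).

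In GIMEN after 30 days the cholesterol genes were lower and the LXR genes higher. All 7 mevalonate genes were lower (median −0.95, all genes 0.02), and of the 11 genes from squalene to cholesterol 7 were lower and TM7SF2 and SC5D higher (median −0.53). The SC5D call (0.38, adjusted p = 0.0184) was lost without D30 replicate 1 (0.24, adjusted p = 0.0708) and without untreated replicate 1 or 2 (adjusted p 0.0637 and 0.0541). All 4 LXR genes tested were higher (median 1.26), and of the fatty acid genes FADS2, ACACA, ACLY and FASN were lower and SREBF1 and FADS1 higher (median −0.22). The libraries of the 2 GIMEN groups did not overlap for 29 of the 33 genes, against 75.1% of all genes.

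HMGCS1 went from 29.7, 28.3 and 34.1 CPM to 15.8, 15.8 and 17.2 CPM (−0.92 ± 0.09, adjusted p = 4.07e-06). The largest falls of the mevalonate branch were in ACAT2, from 26.8, 25.8 and 28.3 CPM to 5.93, 7.62 and 7.25 CPM (−1.96 ± 0.11, adjusted p = 2.63e-08, TCP1 −0.61 and SOD2 1.4), and MVD, from 31.2, 32.1 and 33 CPM to 14.2, 15.6 and 14.2 CPM (−1.13 ± 0.08, adjusted p = 1.83e-07). EBP fell from 30.9, 36.7 and 34.8 CPM to 11.1, 9.37 and 11.5 CPM (−1.68 ± 0.10, adjusted p = 6.34e-08). NSDHL fell from 25.6, 25.8 and 28.2 CPM to 11.9, 13.3 and 10.4 CPM (−1.16 ± 0.10, adjusted p = 1.28e-06). In each of these genes every D30 library lay below every untreated one.

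SREBF2 and INSIG1 went opposite ways in GIMEN. SREBF2 rose from 115, 111 and 116 CPM to 163, 172 and 183 CPM (0.60 ± 0.06, adjusted p = 4.43e-06), while INSIG1 fell from 24.3, 23.5 and 24.1 CPM to 17.6, 15.7 and 16.6 CPM (−0.52 ± 0.08, adjusted p = 0.000141) and STARD4 from 53.7, 50.1 and 54.1 CPM to 27.5, 32.3 and 40.3 CPM (−0.66 ± 0.11, adjusted p = 0.000284). SREBF1 rose from 39.7, 37.3 and 36 CPM to 69.2, 74.1 and 68.3 CPM (0.90 ± 0.07, adjusted p = 2.34e-07). Of the enzymes below it, FADS2 fell from 250, 260 and 269 CPM to 117, 142 and 119 CPM (−1.04 ± 0.08, adjusted p = 3.21e-07). SCD, at 204, 196 and 209 CPM untreated and 197, 231 and 217 CPM at D30, overlapped between the groups (0.08 ± 0.07, adjusted p = 0.296; 0.15 with adjusted p = 0.0471 without D30 replicate 1).

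ABCA1 rose in GIMEN from 12.9, 12.4 and 12.1 CPM to 25.5, 35.8 and 36.8 CPM (1.39 ± 0.13, adjusted p = 2.31e-06), and MYLIP from 9.14, 7.84 and 7.25 CPM to 18.9, 23.9 and 22.5 CPM (1.43 ± 0.12, adjusted p = 1.12e-06). NR1H3 rose by 1.13 ± 0.11 (adjusted p = 2.79e-06) and NR1H2 by 0.97 ± 0.07 (adjusted p = 2.72e-07). ABCG1 had 3 to 7 counts in untreated and 2 to 11 counts in D30 libraries and was not tested.

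The lines differed at 30 days in the cholesterol genes. The difference of the 30-day changes, tested as an interaction over 14 libraries, was higher in SK-N-AS for 19 members and lower for 9, against 24.5% and 25.2% of all 16246 genes (49.7% in either direction). By branch it was higher for 6 of 7 mevalonate genes (median 1.16), 8 of 11 genes from squalene to cholesterol (median 1.18) and all 3 sensing and transport genes (median 0.93), and lower for 6 of 8 fatty acid genes (median −0.56). Of the members, 9 were higher at S2D30 in SK-N-AS and lower at D30 in GIMEN: HMGCS1, MVD, IDI1, FDFT1, SQLE, MSMO1, DHCR7, INSIG1 and STARD4. TM7SF2 did the reverse, and 12 were called in the same direction in both lines, 5 higher and 7 lower. The share of all genes with each of these combinations was not counted. Since 70.3% of all genes were called at S2D30 and 71.4% in GIMEN D30, the combinations are not read as particular to the members.

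The difference between lines was 2.04 ± 0.14 for HMGCS1 (adjusted p = 4.05e-09) and 2.20 ± 0.17 for INSIG1 (adjusted p = 2.66e-08). For SREBF2, which rose in both lines, it was 0.30 ± 0.11 (adjusted p = 0.0364), a call lost in 8 fits that left out 1 library (adjusted p up to 0.0716). For SREBF1 it was −1.09 ± 0.19 (adjusted p = 0.000134) and for SCD −0.45 ± 0.12 (adjusted p = 0.00526). For ABCA1 no difference was found (0.42 ± 0.29, adjusted p = 0.249), with a 95% interval of −0.15 to 0.99. The difference of FASN (−0.59, adjusted p = 0.00306) was −0.14 (adjusted p = 0.342) once trends with GC content and transcript length were removed. The FADS1 difference (0.28, adjusted p = 0.0485) was lost in 11 fits that left out 1 library (adjusted p up to 0.115).

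**Figure D4:**
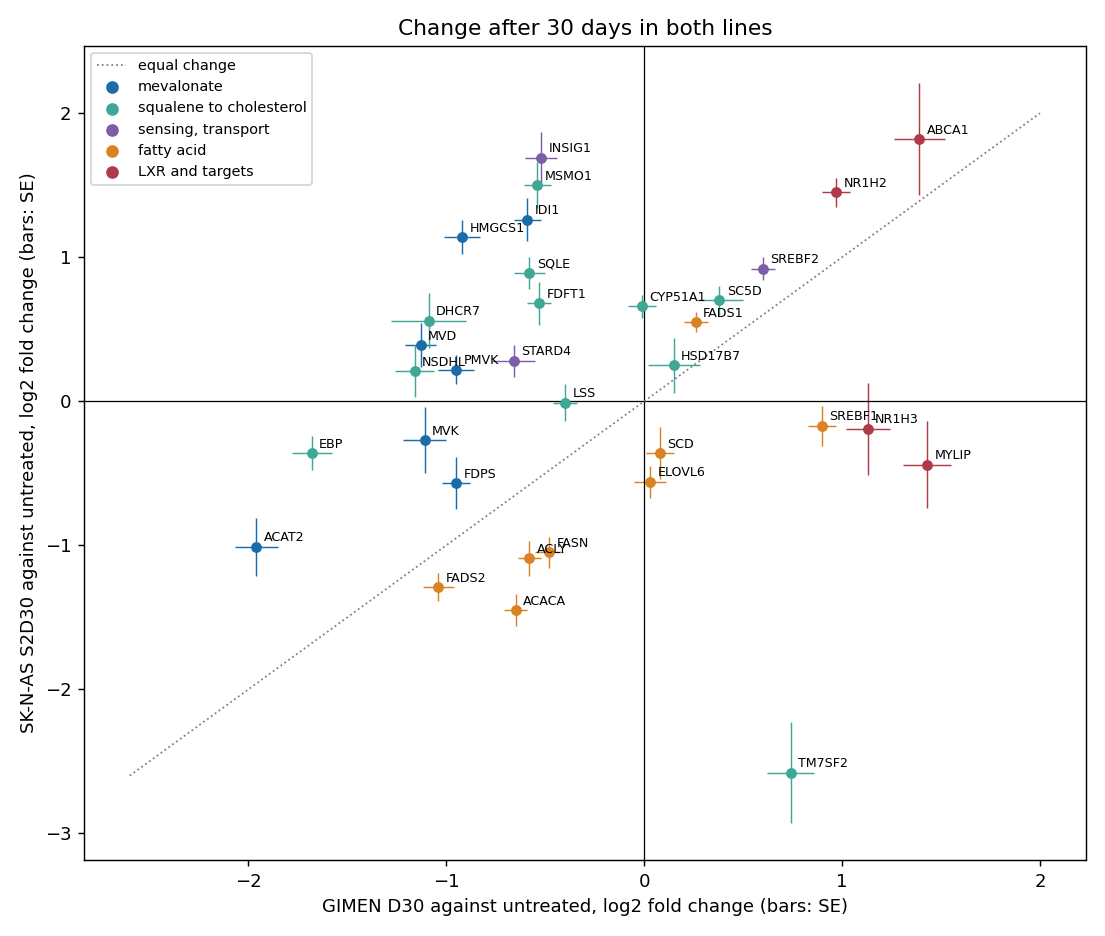
Each point is 1 of the 33 genes tested in both lines, with the log2 fold change after 30 days in GIMEN on the x axis and in SK-N-AS on the y axis, bars of 1 SE and colours by branch; the dotted line marks equal change. The cholesterol genes HMGCS1, IDI1, MSMO1 and INSIG1 lie at upper left, FADS2, ACACA, ACLY and FASN at lower left, ABCA1 and NR1H2 at upper right, and TM7SF2 alone at lower right below −2.

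Untreated GIMEN and untreated SK-N-AS also differed, with 23 members lower and 5 higher in GIMEN, against 38.6% and 35.3% of all genes (73.9% in either direction), and 26 did not overlap, against 71.7%. The largest differences were in ABCA1, higher in GIMEN by 5.03 ± 0.21 (adjusted p = 1.09e-12), and DHCR7, with a difference of −3.45 ± 0.19 (adjusted p = 4.93e-11). HMGCS1 differed by −0.87 ± 0.10 (adjusted p = 3.72e-07) and INSIG1 by −0.45 ± 0.12 (adjusted p = 0.00301), and SREBF2 differed by −0.17 ± 0.08 (adjusted p = 0.0728). SCD differed by −1.04 ± 0.09 (adjusted p = 1.28e-08). With trends of GC content and length removed, FASN went from −1.25 to 0.03, SREBF1 from −1.06 to 0.01 and FADS2 from −0.62 to 0.04, so no direction is given for those 3, and SREBF2 turned to 0.37 (adjusted p = 0.000315), so none is given for it either. The median of all genes in this comparison was −0.051, and it was −0.203 under upper-quartile scaling and 0.136 with trends removed.

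Genes around these branches were followed in lists of their own, whose counts stand beside 33.8% of all genes higher and 36.5% lower at S2D30, and 35.5% and 36% in GIMEN D30. Of 13 genes of sterol transport and storage, 7 were higher and 4 lower at S2D30 (median 0.85), and 6 were higher and 4 lower in GIMEN D30. NPC1, which exports cholesterol from lysosomes, was at 31.1 to 37.6 CPM in untreated SK-N-AS, 41.4 to 52.8 CPM at S1D4, 122 to 153 CPM at S2D4 and 565 to 664 CPM at S2D30 (4.18 ± 0.11, adjusted p = 3.46e-14), with no overlap between the 4 groups. In GIMEN it went from 12.5 to 13.4 CPM untreated to 52.5 to 79 CPM (2.28 ± 0.14, adjusted p = 7.3e-08). GRAMD1B, which carries cholesterol from the plasma membrane to the endoplasmic reticulum, went from 8.71 to 13.7 CPM to 146 to 220 CPM at S2D4 (4.00 ± 0.23, adjusted p = 3.09e-10), was at 63.7 to 99.4 CPM at S2D30, and in GIMEN went from 12 to 13 CPM to 84 to 151 CPM (3.28 ± 0.19, adjusted p = 3.42e-08). NPC2, the lysosomal partner of NPC1, was higher at S2D30 by 2.43 ± 0.19 (adjusted p = 4.86e-09).

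Of 12 other sterol genes tested, 4 were higher and 5 lower at S2D30, close to the share of all genes, and 7 were higher and 4 lower in GIMEN D30. TMEM97, a sterol-responsive membrane protein, fell by 1.46 ± 0.14 at S2D30 (adjusted p = 7.23e-08) and went from 38.5 to 41.9 CPM to 1.5 to 1.86 CPM in GIMEN (−4.58 ± 0.11, adjusted p = 3.78e-11). LBR, which shares the reaction of TM7SF2, was at 105 to 125 CPM untreated and 72 to 78 CPM at S2D30 in SK-N-AS. Of 20 other fatty acid genes, 7 were higher and 5 lower at S2D30, no larger a part than the 70.3% of all genes called, among them the desaturase SCD5, which fell from 11.6 to 17.5 CPM to 0.679 to 1.38 CPM (−3.77 ± 0.24, adjusted p = 6.32e-10). Of 17 genes of fatty acid oxidation, 10 were lower and 3 higher at S2D30 (median −0.55). HADH, a mitochondrial dehydrogenase of that route, fell by 1.85 ± 0.12 at S2D30 (adjusted p = 4.02e-10) and fell by 1.66 ± 0.09 in GIMEN D30 (adjusted p = 2.83e-08). Of 8 other LXR-related genes tested, 1 was higher and 3 lower at S1D4, against 17.6% and 22.4% of all genes. At S2D4, 2 were higher and 4 lower, against 30.9% and 32.2%, and at S2D30, 3 were higher and 4 lower. APOE was among the lower ones each time, at −1.13 ± 0.38, −1.37 ± 0.38 and −1.01 ± 0.38. Its S2D4 level was 120 CPM in replicate 4 and 27.2 to 29.9 CPM in replicates 1 to 3. In GIMEN D30, 5 of 7 tested were higher, APOE among them (1.21 ± 0.30), and 1 was lower.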

How the data were processed

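The authors deposited raw read counts per gene symbol for 22 RNA-seq libraries, made from DNase-treated total RNA and sequenced as paired ends on a HiSeq X, per the labels' protocols. The aligner, genome build and strand setting are not given in the sources used here.

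Each line was fitted with edgeR's quasi-likelihood test (edgeR 4.0.16, limma 3.58.1, R 4.3.3), with TMM scaling, filterByExpr (minimum count 10, minimum total 15) and Benjamini-Hochberg adjustment over all genes. Differences between the lines came from a model of the 14 untreated and 30-day libraries. The scripts were tested on simulated data. Alternatives were DESeq2 1.42.0, other scalings and filters, a replicate block, other sample sets and each library left out; removal of trends with GC content and length was chosen after seeing the data. Promoters came from RefSeq (GRCh38.p14) and exon overlaps from GENCODE v29. The members and lists were chosen with earlier results of these data known. All members are named; full statistics go to the 2 largest called changes from untreated per branch and to SREBF1, SREBF2, INSIG1, HMGCS1, ABCA1 and SCD; at most 3 genes were eligible to be named per further list and comparison. LBR and the partner genes of ACAT2 were named for what they share with a member.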

Additional observations from a re-analysis of the deposited data

Results flagged for a closer look

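In 9 of 136 combinations of a gene and an SK-N-AS group, 1 library lay apart from the other 3 by Dixon's criterion, which chance alone meets in about 1 in 20 groups. In 7 of the 9 it was replicate 4 of S2D4. There FDPS was at 64.6 CPM against 106 to 109 CPM in the other 3, and NR1H2 at 89.4 CPM against 115 to 118 CPM. In the same library LSS was at 161 CPM against 97.3 to 105 CPM, TM7SF2 at 65.6 CPM against 15.8 to 19.9 CPM, and ELOVL6 at 126 CPM against 92.7 to 95.3 CPM. SCD was at 381 CPM there against 182 to 188 CPM, and MYLIP at 47.9 CPM against 14.5 to 15.9 CPM. The other 2 were FASN in S1D4 replicate 2, at 1040 CPM against 906 to 921 CPM, and FADS1 in untreated replicate 3, at 160 CPM against 187 to 193 CPM.

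The 30-day change differed between the lines, by the interaction test, for 28 of the 34 genes, against 49.7% of all 16246 genes tested. On the log2 scale, SK-N-AS minus GIMEN, the mevalonate genes differed by 0.93 (ACAT2), 2.04 (HMGCS1), 0.82 (MVK), 1.16 (PMVK), 1.51 (MVD) and 1.83 (IDI1). The genes from squalene to cholesterol differed by 1.18 (FDFT1), 1.45 (SQLE), 0.37 (LSS), 0.65 (CYP51A1), −3.34 (TM7SF2), 2.02 (MSMO1), 1.35 (NSDHL), 1.3 (EBP) and 1.63 (DHCR7). Those of sterol sensing and transport differed by 0.30 (SREBF2), 2.20 (INSIG1) and 0.93 (STARD4). Fatty acid genes differed by −1.09 (SREBF1), −0.53 (ACLY), −0.82 (ACACA), −0.59 (FASN), −0.61 (ELOVL6), −0.45 (SCD) and 0.28 (FADS1). LXR genes differed by 0.46 (NR1H2), −1.34 (NR1H3) and −1.88 (MYLIP). The lines also differed in dose, serum and medium, so line and treatment cannot be told apart.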

How the results depend on the processing

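Counts are listed here only where they moved past a set ratio from the reported ones. Requiring a fold change of at least 1 on the log2 scale left 4 lower genes at S1D4, 2 higher and 11 lower at S2D4, and 6 higher at S2D30. It left 0 higher and 1 lower from S1D4 to S2D4, and 14 higher and 3 lower from S2D4 to S2D30. Genes higher at S1D4 (among them ABCG1, ABCA1 and NR1H3) and lower at S2D30 (among them TM7SF2, ACACA and FADS2) also remained. Of all 15810 genes, 953 higher and 989 lower remained at S1D4, 2096 and 2481 at S2D4, and 2807 and 3038 at S2D30. From S1D4 to S2D4, 1406 higher and 2019 lower of all genes remained, and from S2D4 to S2D30, 1603 and 1506. The same rule left 3 higher and 7 lower in GIMEN, 11 higher and 4 lower for the difference between lines, and 2 higher and 11 lower for untreated GIMEN against SK-N-AS. Over all genes it left 1599 higher and 1738 lower of 13517 in GIMEN. Of 16246 genes it left 1970 and 2265 for the difference between lines, and 3008 and 3845 for the untreated lines. A model of the compared groups alone gave 7 higher at S1D4 and 3 at S2D4. From S1D4 to S2D4, 3 genes were higher, and 1 under upper-quartile scaling, 6 with a term for replicates 3 and 4 of untreated and S1D4, and 5 with GC and length trends removed; upper-quartile scaling gave 3 higher in untreated GIMEN. The cause was not tested.

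With each library left out in turn, the counts higher and lower were 4 to 4 and 19 to 23 at S1D4, 3 to 5 and 24 to 27 at S2D4, 14 to 15 and 8 to 10 at S2D30, 3 to 4 and 9 to 13 from S1D4 to S2D4, and 24 to 25 and 4 to 6 from S2D4 to S2D30. They were 8 to 9 and 20 to 20 in GIMEN, 17 to 21 and 8 to 10 for the difference between lines, and 4 to 5 and 22 to 27 for the untreated lines.

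Between untreated and S1D4, same-numbered libraries correlated at 0.309, 0.28, 0.033 and 0.314 for replicates 1 to 4. The highest correlation with another number was 0.164, 0.192, 0.061 and 0.309 in the same order, so replicate 4 was nearly tied. In the other pairs of groups same-numbered libraries correlated at −0.106 to 0.111. In no pair of groups was every same-number correlation above 0.1, so the numbers were not taken to pair the samples. With a replicate block the counts higher and lower were 4 and 22, 4 and 27, 15 and 9, 3 and 13, 25 and 6, 9 and 20, 18 and 9, and 5 and 23, in the order above. The block ended the call on NR1H3 at S2D4 (0.66, adjusted p = 0.0886) and on FADS1 between lines (0.28, adjusted p = 0.0637).

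Apart from SREBF1, FASN and FADS2 between the untreated lines, signs turned only in changes not called in the reported fit. SREBF2 at S1D4 was 0.01 with DESeq2 size factors, the DESeq2 test or no filter, 0.02 with upper-quartile scaling or the compared groups alone, and −0.07 to 0.04 with 1 library out. LSS at S2D30 was 0.03 by both DESeq2 settings, 0.02 without a filter or with the compared groups alone, 0.01 at a mean of 10 counts, 0.04 with trends removed, and −0.05 to 0.04 with 1 library out. MYLIP at S2D4 was −0.16 to 0.64 with 1 library out. From S1D4 to S2D4 with 1 library out, PMVK was −0.12 to 0.04, NSDHL −0.06 to 0.15, EBP −0.03 to 0.10, SC5D −0.04 to 0.03, ELOVL6 −0.01 to 0.15 and ABCG1 −0.48 to 0.03. In that comparison upper-quartile scaling gave −0.07 for NSDHL and −0.05 for EBP, and removing trends gave 0.13 for PMVK, −0.04 for ELOVL6 and 0.04 for ABCG1. In GIMEN, CYP51A1 was 0.04 with upper-quartile scaling, 0.19 with trends removed and −0.06 to 0.03 with 1 library out, and ELOVL6 was 0 without a filter and −0.01 to 0.07 with 1 library out. HSD17B7 between lines was −0.05 to 0.21 with 1 library out, and SREBF1 at S2D30 was 0 with trends removed. For untreated lines, removing trends gave 0.07 for ACAT2, 0.37 for SREBF2, 0.01 for SREBF1, 0.02 for ACACA, 0.03 for FASN and 0.04 for FADS2, and of these SREBF1, FASN and FADS2 were called lower in the reported fit. ACLY was −0.07 with upper-quartile scaling and −0.03 to 0.20 with 1 library out, FDFT1 −0.32 to 0, and ACACA 0 at a mean of 10 counts, 0.01 with the block and −0.09 to 0.10 with 1 library out. Depth limits ABCA1 and ABCG1, the members with the fewest counts.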
